A study of Mus musculus with 3 samples.

Results

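The cells described here were macrophages of sham-operated and infarcted neonatal mouse hearts that contained transcripts of at least 3 of the genes *Cx3cr1*, *Hpgd*, *St3gal6*, *Gpr34* and *Rnf180* and none of *Lyve1*. They were chosen by measured values: a cell entered if at least 0.3% of its unique molecular identifiers (UMIs, each of which tags 1 captured RNA molecule) came from *C1qa*, *C1qb* and *C1qc*, if at least 3 of the 5 genes had a UMI, and if *Lyve1*, *Mki67* and *Top2a* had 0 UMIs. Cells also had to hold 500 to 30000 UMIs and 500 to 5000 genes, with under 10% of UMIs from mitochondrial genes. The choice found 1223 of the 10550 cells within these limits, 415 of 2352 in P10-sham_vehicle, 486 of 3454 in P10-MI_vehicle and 322 of 4744 in P10-MI_SB225002.

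All hearts came from C57BL/6 mice operated on at P10 and killed 72 h later, at P13. P10-sham_vehicle mice had sham surgery and vehicle, P10-MI_vehicle mice had myocardial infarction (MI) by tying off the left anterior descending artery, and vehicle, and P10-MI_SB225002 mice had MI and the CXCR2 antagonist SB225002, injected on 3 days. Tissue of the infarct and border zones was pooled, per the methods, from 3 to 5 hearts of both sexes and sorted for CD45+F4/80+7AAD– cells, and each group gave 1 library. With 1 library per group, no test was made, the library and the condition cannot be told apart, and all intervals below are 95% intervals that cover counting error only.

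Cardiac macrophages that entered the heart before birth maintain themselves in the tissue, clear dying cells and secrete growth factors. *Lyve1* and *Folr2* mark those that lie along vessels, whereas other resident cells carry more MHC class II. CX3CR1 is the receptor for the chemokine fractalkine, HPGD is the dehydrogenase that inactivates prostaglandins, ST3GAL6 adds sialic acid to glycans, GPR34 is a receptor for lysophosphatidylserine, and RNF180 is a ubiquitin ligase. *Cx3cr1* and *Gpr34* are also known from microglia, a cell type whose identity depends on TGF-β.

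Among the chosen cells, *Cx3cr1* had a UMI in 97.3% of cells after sham surgery, 97.3% after MI with vehicle and 97.5% after MI with SB225002, the order kept for all values below. *Hpgd* followed with 83.6%, 81.7% and 76.7%, *Gpr34* with 65.8%, 67.1% and 64.0%, *Rnf180* with 60.7%, 54.7% and 58.4%, and *St3gal6* with 58.8%, 53.3% and 43.8%. Cells of the same libraries that carried at least 3 fibroblast genes and little C1q, which should lack these genes, had them in 0.893% to 9.41% of cells at median depths of 5882 to 7319 UMIs. The choice itself set these shares, which are therefore a description. All 5 genes were found together in 55 of 415, 48 of 486 and 21 of 322 cells.

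Each of 12 core macrophage genes, among them *Adgre1*, *Csf1r*, *Mertk* and *Fcgr1*, was detected in every library, but so was each of 9 neutrophil genes. The summed level of the core genes was 6054, 6361 and 5653 CPM (the UMIs of a gene per 1000000 UMIs, summed over the chosen cells of a library). In the fibroblast-marker cells it was 267, 280 and 204 CPM. The cells had been chosen by C1q, so these values are a description. Residence in the tissue was not measured. Of the 14 genes that mark Lyve1+ resident macrophages, 13 were detected in each library, all but *Lyve1*, which the choice had excluded. Their summed level was 10186.5, 9649 and 7130 CPM. In C1q+ non-dividing cells with UMIs of *Lyve1* and *Folr2* it was 16691, 15661 and 13350 CPM. Within the list, *Timd4* had 20, 18 and 7 UMIs in all and *Vsig4* 17, 39 and 9. *Mrc1*, the mannose receptor gene, lay at 1101 to 1929 CPM. *Ccr2*, the receptor by which monocytes leave the bone marrow, had a UMI in 9.64%, 12.96% and 16.5% of the chosen cells against 0%, 4.91% and 1.72% of the fibroblast-marker cells. Cells with B cell genes had it in 0%, 13.1% and 15.2% (0 of 21, 8 of 61 and 7 of 46 cells), at lower depth, so the shares after MI lay near those. The part of RNA from other cells in the *Ccr2* shares was not tested. Dendritic cell genes summed to 7.63 to 11.9 CPM with *Cd209a* at 0 UMIs, and the 4 mast cell genes had 0 UMIs.

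The cut between chosen and other cells fell within a continuous range. Lyve1-negative cells with exactly 3 of the 5 genes numbered 195, 271 and 213, and those with exactly 2 numbered 147, 293 and 410. Just inside, *Cx3cr1* lay at 708, 671 and 482 CPM and *Spp1* at 114, 657 and 2991 CPM. Just outside, *Cx3cr1* lay at 572, 473 and 396 CPM and *Spp1* at 165, 1613 and 6100 CPM. A single *Lyve1* UMI kept out 77, 66 and 41 cells that met the rest of the choice.

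The median chosen cell held 8414 UMIs in P10-sham_vehicle, 6562 in P10-MI_vehicle and 6321 in P10-MI_SB225002, and the summed UMIs were 3802770, 3542474 and 2208576. Libraries shared 1260 to 1844 cell barcodes by pair, and 10 to 26 barcodes were chosen in both libraries of a pair. C1q+ cells with the same barcode in P10-sham_vehicle and P10-MI_vehicle had a median correlation of 0.564 over 2000 genes, and cells with other barcodes 0.560. Cells with a UMI of *Xist* and none of the Y-linked genes were 23.1%, 16.7% and 30.7% of the chosen cells, so the mix of sexes differed between libraries, and its part in the results below was not tested.

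How common the cells were varied with thinning of the UMIs, described below, and with the cells they were counted among. They made up 34.6% of C1q+ non-dividing cells in P10-sham_vehicle (415 of 1198, Clopper-Pearson 95% interval 31.9% to 37.4%), 28.6% in P10-MI_vehicle (486 of 1700, 26.4% to 30.8%) and 16.4% in P10-MI_SB225002 (322 of 1958, 14.8% to 18.2%). P10-MI_vehicle was -6.05 percentage points from P10-sham_vehicle (Newcombe interval -9.55 to -2.57), and P10-MI_SB225002 was -12.1 points from P10-MI_vehicle (-14.9 to -9.40). As a share of all C1q+ cells, dividing ones included, they made up 19.6%, 19.3% and 9.87%. The first difference was then -0.28 points (-2.61 to 2.03) and the second -9.47 points (-11.4 to -7.60).

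When every cell was first thinned to 2000 UMIs, which left out 4.72%, 10.6% and 13.6% of cells as too shallow, the shares were 9.71%, 9.46% and 4.73%. The difference between P10-MI_vehicle and P10-sham_vehicle was then -0.26 points, with an interval of -2.33 to 1.79, and was not detectable. The choice was applied again to the thinned cells, so the sets of cells changed as well. C1q+ non-dividing cells then numbered 1493, 1819 and 2116, against 1198, 1700 and 1958 with all UMIs. Equal depth and this change of sets cannot be told apart. P10-MI_SB225002 lay -4.73 points from P10-MI_vehicle (-6.41 to -3.09). The Lyve1+ Folr2+ cells showed the same order without thinning, with 37.5%, 27.8% and 15.6% of C1q+ non-dividing cells. The remaining Lyve1-negative cells, with fewer than 3 of the 5 genes, took 23.6%, 39.6% and 65.3%. These are shares of sorted cells, so fewer cells of a kind and more of the others cannot be told apart.

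**Figure D1:**
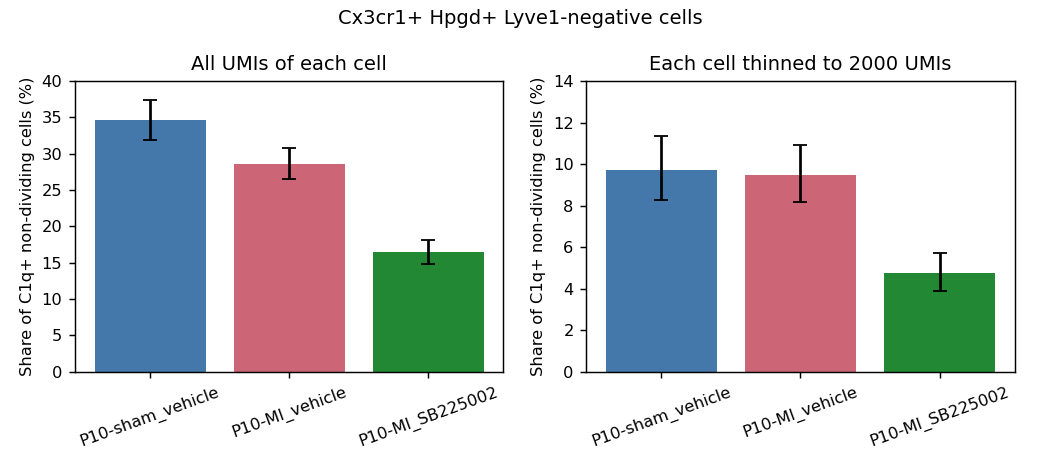
Share of C1q+ non-dividing cells (%, vertical axis from 0) that were Cx3cr1+ Hpgd+ Lyve1-negative in each library, with all UMIs (left) and with each cell thinned to 2000 UMIs (right); bars are the shares and whiskers exact 95% binomial intervals. On the left the bars step down from 34.6% to 28.6% and 16.4%, and on the right the first pair stand level at 9.71% and 9.46% above 4.73%.

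Cells that met the same choice but had at least 1 UMI of *Mki67* or *Top2a*, genes of dividing cells, numbered 356, 230 and 319. They were 46.2%, 32.1% and 49.8% of all such cells, dividing or not, and 26.8%, 11.3% and 27.0% after thinning. P10-MI_vehicle was the lowest in both. Among the other C1q+ cells the shares were 41.7%, 32.4% and 37.6%, with the same library lowest.

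Beside the Lyve1+ Folr2+ macrophages of the same libraries, the chosen cells carried more transcripts of *Tgfbr1*, of some inhibitors of TGF-β signalling and of MHC class II, and fewer of the genes that mark Lyve1+ cells. The other Lyve1-negative cells, with fewer than 3 of the 5 genes, shared much of this: *Tgfbr1* lay there at 133, 109 and 137 CPM, and *H2-Aa*, *H2-Ab1*, *H2-Eb1* and *Cd74* together at 457, 534 and 465 CPM against 297, 564 and 497 CPM in the chosen cells. Just outside and just inside the cut, *Tgfbr1* lay at 139 and 144 CPM after sham surgery and *Cd74* at 289.5 and 299 CPM. The Lyve1+ Folr2+ cells (449, 472 and 305 cells) were C1q+ and non-dividing as well, with at least 1 UMI each of *Lyve1* and *Folr2*. Because cells were sorted into both sets by their own RNA, the values describe the sets and no test applies. Of 8570 genes, 145 (1.69%) were at least 1.5-fold higher in the chosen cells in all 3 libraries and 98 (1.14%) at least 1.5-fold lower. *Ccr2* was among the higher ones, at 56.8, 88.9 and 115 CPM against 9.83, 48.7 and 50.1 CPM in the Lyve1+ Folr2+ cells. The other Lyve1-negative cells held it at 49.4, 126 and 140 CPM. It was the 1 of 8 Ly6c-high monocyte genes higher in all 3 libraries, with 0 lower and a list median of -0.40.

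*Tgfbr1*, which encodes the type I TGF-β receptor, lay at 161, 172 and 170 CPM in the chosen cells and at 53.6, 63.1 and 69.2 CPM in the Lyve1+ Folr2+ cells. The log2 ratios were 1.58, 1.45 and 1.30, so the sets stood apart by over 1.5-fold in each library. *Tgfbr1* had a UMI in 56.4%, 54.5% and 58.7% of the chosen cells and in 30.7%, 29.4% and 31.8% of the Lyve1+ Folr2+ cells. Fibroblast-marker cells, which may express it themselves, had it in 28.2%, 34.8% and 36.2%.

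*Pmepa1*, a TGF-β target that restrains the pathway, followed with log2 ratios of 1.74, 1.37 and 0.86. Of 14 measured genes of TGF-β signalling, 5 were at least 1.5-fold higher in all 3 libraries and 0 lower: *Tgfbr1*, *Pmepa1*, the integrin chain *Itgav*, which takes part in activating latent TGF-β, and the inhibitors *Smad7* and *Skil*. *Smad7* lay at 14.2 to 17.7 CPM against 6.32 to 8.59 CPM. The ligand *Tgfb1* and the second receptor chain *Tgfbr2* did not pass 1.5-fold, with log2 ratios of -0.17 to -0.05 and 0.01 to 0.18. Across the 14 genes the median ratio was 0.20, against 0.00 over all genes.

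Among genes known from homeostatic microglia, *Tmem119* and *Olfml3* were at least 1.5-fold higher in all 3 libraries. *Tmem119* lay at 48.4, 59.0 and 51.2 CPM against 12.9, 16.9 and 19.1 CPM in the Lyve1+ Folr2+ cells. *Olfml3* had log2 ratios of 2.13, 2.49 and 1.42. The purinergic receptor gene *P2ry12* did not stand apart, with ratios of -0.20, 0.13 and -0.16, *Ltc4s* was lower with -1.25 to -1.46, and *Sall1* had at most 1 UMI in any library.

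Of 6 measured MHC class II genes, 5 were at least 1.5-fold higher in all 3 libraries. *Cd74*, the invariant chain that guides MHC class II molecules, lay at 211, 307 and 317 CPM against 78.0, 135 and 125 CPM. *H2-Aa* lay at 33.4, 112 and 77.9 CPM against 9.13, 45.7 and 32.0 CPM. The transcripts sat in few cells: a UMI of *H2-Aa*, *H2-Ab1*, *H2-Eb1* or *Cd74* was found in 43.6%, 37.4% and 35.4% of the chosen cells (19.0%, 17.2% and 15.8% after thinning), and the top 5% of cells held 78.2%, 84.4% and 84.7% of these UMIs. Fibroblast-marker cells had one in 3.53%, 11.2% and 8.62%. B cells carry MHC class II as well, and B cell genes summed to 249, 280 and 302 CPM in the chosen cells against 136, 186 and 187 CPM in the Lyve1+ Folr2+ cells. *Ighm*, the heavy chain of IgM, was the B cell gene past 1.5-fold in all 3 libraries. Their part in the MHC class II difference was not tested. Endothelial genes stood apart as well: 4 of 4 measured (*Cdh5*, *Kdr*, *Gpihbp1* and *Flt1*) were at least 1.5-fold higher in all 3 libraries, at a median of 1.67, as were *Col1a2* of fibroblasts and *Hba-a2* of red cells. Their part in the genes named below, among which *Fabp4* and *Itga6* are also known from endothelium, was not tested.

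Other genes higher in the chosen cells, named by rank, were *Plxdc2* (141, 192 and 139 CPM against 34.6, 68.0 and 41.0 CPM), *Cd72* (log2 ratios 1.53, 1.74 and 1.44), *Col14a1*, *Fabp4*, *Mpeg1*, *Cxcl16* and *Itga6*. CD72 is an inhibitory receptor, *Mpeg1* encodes perforin-2, and CXCL16 is a chemokine that can stay on the membrane. Of 15 measured genes for the uptake of dying cells, the receptor gene *Axl* was higher, at 68.6, 68.3 and 65.2 CPM against 19.4, 23.7 and 16.2 CPM, as were the integrin chains *Itgav* and *Itgb5*. Its ligand *Gas6* was lower, with ratios of -0.97, -0.82 and -1.15, and so was *Timd4*. Of 13 measured growth and repair factors, *Pdgfb* (0.96, 1.15 and 1.08) and *Hgf* (at 12.2 to 20.9 CPM) were higher and *Bmp2* was lower (-1.46, -1.07 and -1.08), with a median of -0.02.

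Lower in the chosen cells were 9 of 14 genes of the Lyve1+ resident list, which includes *Lyve1* and *Folr2* that chose the sets. *Cd163*, the haemoglobin scavenger receptor, lay at 123, 108 and 51.6 CPM against 300, 342 and 224 CPM. *F13a1* had ratios of -1.08, -1.03 and -1.29. *Ednrb* (an endothelin receptor), *Fcna* (ficolin A), *Cbr2*, *Ccl6* and *Wfdc17* were lower in each library. *Saa3*, *Arg1* and *Ltf*, also low by rank, varied more: *Ltf* turned from 1.59 in P10-sham_vehicle to -1.97 and -1.63.

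**Figure D2:**
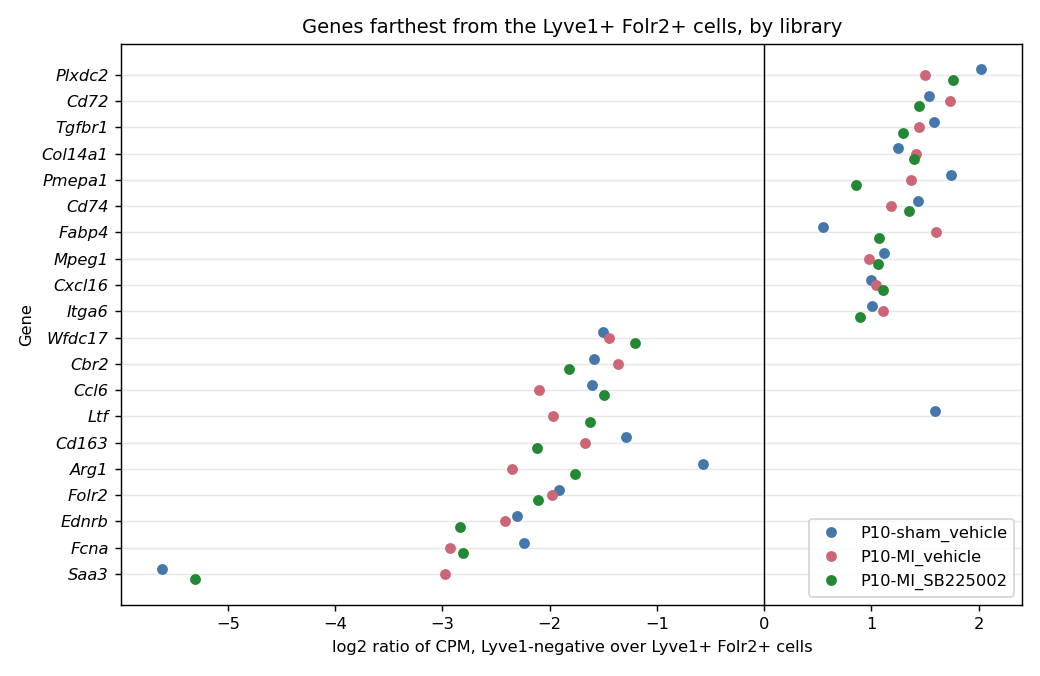
Log2 ratio of CPM in the Cx3cr1+ Hpgd+ Lyve1-negative cells over the Lyve1+ Folr2+ cells (horizontal axis) for the 10 highest and 10 lowest genes by median, with 1 point per library. The 3 points of *Tgfbr1* lie between 1.30 and 1.58 and those of *Folr2* between -2.11 and -1.91, whereas *Ltf* lies on both sides of 0.

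The next question was how these cells differed after MI with vehicle from those after sham surgery. Of 8359 genes with a mean of at least 10 CPM, 230 (2.75%) were at least 1.5-fold higher in P10-MI_vehicle and 162 (1.94%) at least 1.5-fold lower, with a median log2 ratio of -0.02 over all genes. None of the 12 core macrophage genes passed 1.5-fold, and neither did any of the 11 measured genes of the Lyve1+ resident list or any of the 13 measured genes for the uptake of dying cells. *Mrc1* lay at 1929 and 1833 CPM, and *Csf1r*, the receptor for the macrophage growth factor CSF1, at 1011 and 1097 CPM.

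The chemokine genes *Ccl7*, *Ccl2* and *Ccl12*, whose products draw monocytes, were lower after MI in these cells, whereas *Ccl8* was higher. *Ccl7* lay at 453 CPM in P10-sham_vehicle and 204 CPM in P10-MI_vehicle, a log2 ratio of -1.15 (interval -1.28 to -1.03). *Ccl2* lay at 796 and 478 CPM (-0.74, -0.82 to -0.65), and *Ccl12* at 814 and 502 CPM (-0.70, -0.78 to -0.61). The Lyve1+ Folr2+ cells gave -1.01, -0.73 and -1.30, so these chemokines were lower there too. *Tnf* (-0.59), *Ccl3* (-0.90) and *Cxcl10* (-0.99) were lower as well.

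Of 18 measured inflammatory genes, these 6 were at least 1.5-fold lower and 4 at least 1.5-fold higher. The cytokine gene *Il1b* lay at 5.79 and 14.7 CPM and *Ccl8* at 30.8 and 68.6 CPM. *Saa3*, an acute-phase gene, had 1 UMI in P10-sham_vehicle and 258 in P10-MI_vehicle, but its share of cells after MI, 11.3%, was near the 10.3% of fibroblast-marker cells. Its level after MI was 72.8 CPM in the chosen cells and 811 CPM in fibroblast-marker cells. The top 5% of chosen cells held 88.4% of its UMIs there, and the part of RNA from other cells was not tested. *Ccl5* had 1 and 167 UMIs, the latter in 8 cells. The median of the list was -0.18.

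*Spp1*, which encodes osteopontin, had the highest ratio after *Plac8* among genes with at least 100 CPM. It lay at 105 CPM in P10-sham_vehicle and 471 CPM in P10-MI_vehicle, a log2 ratio of 2.17 (2.01 to 2.33), and the Lyve1+ Folr2+ cells gave 3.68. *Fn1* (fibronectin) lay at 52.1 and 138 CPM, a ratio of 1.41 (1.17 to 1.66). *Arg1* (arginase 1) had 3 and 61 UMIs, a ratio of 4.45 with an interval of 2.83 to 6.77. In P10-MI_vehicle *Arg1* lay at 17.2 CPM, in 5.76% of the chosen cells. Fibroblast-marker cells of that library held it at 114 CPM, in 4.46% of cells, and the Lyve1+ Folr2+ cells at 87.8 CPM. The part of RNA from other cells in the *Arg1* ratio was not tested. *Gpnmb* lay at 14.2 and 34.4 CPM and *Fabp5* at 79.2 and 130 CPM, and with *Spp1* they were the 3 of 15 lipid-associated macrophage genes past 1.5-fold, at a list median of 0.20.

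These transcripts were spread over few cells. A *Spp1* UMI was found in 17.1% of the chosen cells of P10-sham_vehicle and 36.0% of P10-MI_vehicle (8.19% and 20.7% after thinning), against 2.35% and 21.0% of fibroblast-marker cells. The top 5% of chosen cells held 76.7% and 80.2% of the *Spp1* UMIs. *Plac8* lay at 11.3 and 122 CPM, but its UMI shares of 2.41% and 7.41% lay below the 4.71% and 15.2% of fibroblast-marker cells. The top 5% of chosen cells held 100% and 97.5% of its UMIs. The part of RNA from other cells in its ratio was not tested.

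MHC class II genes were higher after MI in these cells: *H2-Aa* gave a ratio of 1.74 (1.45 to 2.04), *H2-Eb1* 1.58 and *H2-Ab1* 1.40, 3 of 6 genes past 1.5-fold, whereas *H2-DMa* and *H2-DMb1* gave -0.00. The share of cells with such a UMI was not higher (43.6% and 37.4%). *H2-Aa* gave 2.32 in the Lyve1+ Folr2+ cells. Of the 16 measured interferon-stimulated genes, *Isg15* (43.1 and 17.2 CPM, ratio -1.32), *Ifit1* and *Ifit3* were at least 1.5-fold lower and 0 higher, with a median of -0.32. With only cells under 5% mitochondrial UMIs that median turned to 0.04.

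Genes of the immediate-early response, which is switched on within minutes by growth factors, stress and handling of tissue, had a median ratio of 0.00 between P10-MI_vehicle and P10-sham_vehicle, with 1 of 23 past 1.5-fold, *Nr4a1* (16.3 and 35.9 CPM). TGF-β signalling had 1 of 14 higher (*Tgif1*, 0.72) and a median of 0.06. *Tgfbr1* itself gave 0.10 (-0.07 to 0.26). The other genes named by rank were *Retnlg*, *Wfdc21* and *Ifitm1* among the higher, with *Mt2* (metallothionein 2) at 88.4 and 156 CPM, *Cdk8* at 249 and 528 CPM, *Gm19951* at 167 and 279 CPM, and *Ftl1-ps1*, a pseudogene whose reads may belong to *Ftl1*. *Plekho1*, *Snrpd3*, *Rps6*, *Sap18*, *Psmb5* and *Rbm3* filled the lower end, with ratios of -0.80 to -0.51.

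**Figure D3:**
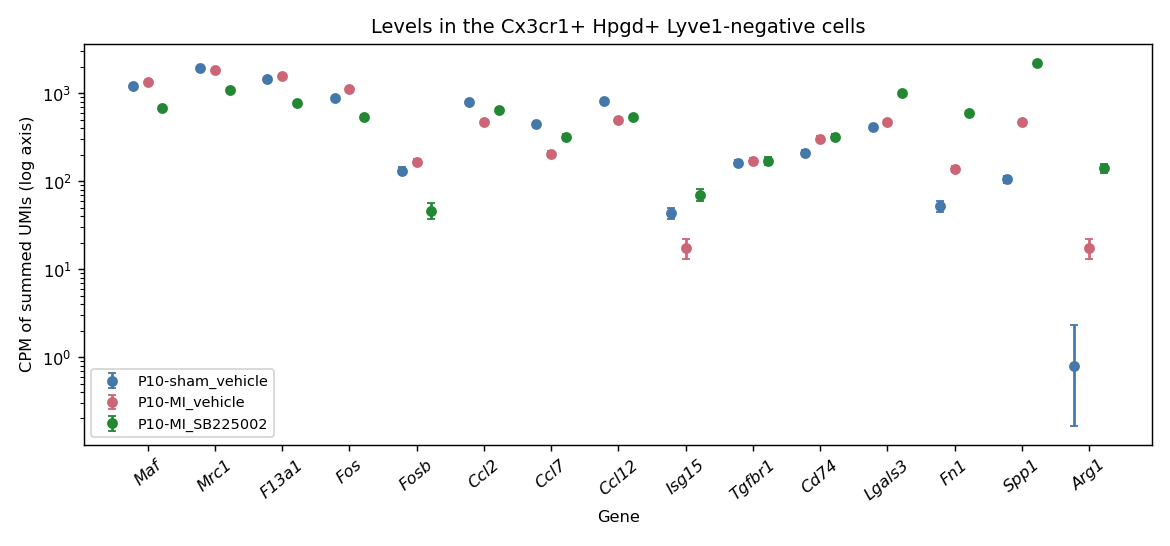
CPM of summed UMIs (log axis) of 15 genes in the Cx3cr1+ Hpgd+ Lyve1-negative cells, with 1 point per library and exact 95% Poisson intervals. *Maf*, *Mrc1*, *F13a1*, *Fos* and *Fosb* are lowest in P10-MI_SB225002, *Ccl7* is lowest in P10-MI_vehicle, *Tgfbr1* stays between 161 and 172 CPM, and *Spp1*, *Fn1* and *Arg1* step up from sham to MI and again with SB225002.

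The last comparison set the cells of infarcted hearts treated with SB225002 beside those treated with vehicle. Of 8359 genes, 542 (6.48%) were at least 1.5-fold higher in P10-MI_SB225002 and 458 (5.48%) at least 1.5-fold lower, with a median log2 ratio of 0.00. The cells held fewer transcripts of some resident macrophage genes and of immediate-early genes, and more of interferon-stimulated, glycolysis and lipid-associated genes. Of 12 core macrophage genes, 1 was lower (*Maf*) and 0 higher, at a median of -0.11. Cells with exactly 3 of the 5 genes were 271 of 486 chosen cells in P10-MI_vehicle and 213 of 322 in P10-MI_SB225002. The part of this nearness to the cut in the differences was not tested.

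*Maf*, a transcription factor of resident macrophages, lay at 1206 CPM in P10-sham_vehicle, 1339 in P10-MI_vehicle and 675 in P10-MI_SB225002, a ratio of -0.99 (-1.07 to -0.90) between the infarcted groups. *Mrc1* lay at 1929, 1833 and 1101 CPM (-0.74, -0.80 to -0.67) and *F13a1* at 1462, 1582 and 786 CPM (-1.01, -1.09 to -0.93). In each case the sham and vehicle MI libraries lay close and the SB225002 library apart. *Cd163* (-1.06), *Mgl2* (-0.78) and *Cbr2* (-0.75) made 5 of 11 genes of the Lyve1+ resident list lower, at a median of -0.54. Of the same list 3 were lower in the Lyve1+ Folr2+ cells, with a median of -0.23.

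*Mrc1* had a UMI in 99.5%, 98.4% and 93.5% of cells (90.8%, 90.8% and 79.7% after thinning) against 9.77% to 12.9% of fibroblast-marker cells. Among 15 transcription factors of macrophages, *Mef2c* (-0.59) and *Tfec* (-0.60) were lower with *Maf*, and *Cebpb* (0.71) and *Id3* (0.68) were higher. The genes of the choice showed -0.55 for *Cx3cr1*, -0.39 for *Gpr34*, -0.34 for *St3gal6*, -0.32 for *Hpgd* and 0.19 for *Rnf180*, which the choice had constrained.

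Of 23 measured immediate-early genes, 12 were at least 1.5-fold lower with SB225002 and 1 (*Fosl2*) higher, with a median of -0.60. *Fos*, a subunit of the AP-1 factor, lay at 897, 1131 and 544 CPM (-1.06, -1.15 to -0.96). *Fosb* lay at 132, 166 and 46.2 CPM (-1.84, -2.16 to -1.54), and *Jun* at 787, 886 and 438 CPM (-1.01). *Dusp1*, a phosphatase that ends MAP kinase signalling, gave -0.89, *Egr1* -1.12 and *Klf4* -1.08, whereas *Junb* (-0.41) and *Ier2* (0.11) did not pass 1.5-fold. A *Fos* UMI was found in 89.2%, 88.3% and 75.2% of cells (65.5%, 72.8% and 52.7% after thinning).

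Lower values of these genes were seen in other cells too. In the Lyve1+ Folr2+ cells 12 were lower and the median was -0.67, and the summed level of the list in fibroblast-marker cells was 8415, 7926 and 4902 CPM, beside 6847, 7205 and 4453 CPM in the chosen cells. Handling of tissue also moves these genes, and its part was not tested. Heat-shock genes, another sign of handling, had 2 of 10 lower (*Hspa1a*, -1.87, and *Hspb1*, -0.90) and a median of -0.10.

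Because members of the list were lower together, their promoters were read for TGACG, the core that CREB and ATF factors bind. The windows were the 250 bases before each RefSeq start in build GRCm38.p6, for 23 of the 28 listed genes. TGACG on either strand, which includes any TGACGTCA, was found in 5 of the 10 lower genes with a window, in 4 of the 9 measured genes with a window that were not lower, and in 17.8% of all 32851 windows. The 3 shown belong to genes with low values, and capitals mark TGACG on either strand or the longer TGACGTCA.
Fos (chr12:85473640-85473889, forward strand): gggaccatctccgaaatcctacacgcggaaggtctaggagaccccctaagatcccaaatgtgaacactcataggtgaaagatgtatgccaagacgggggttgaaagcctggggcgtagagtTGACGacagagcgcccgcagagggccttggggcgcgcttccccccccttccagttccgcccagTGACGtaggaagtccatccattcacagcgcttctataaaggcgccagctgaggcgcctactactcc
Fosb (chr7:19310046-19310295, reverse strand): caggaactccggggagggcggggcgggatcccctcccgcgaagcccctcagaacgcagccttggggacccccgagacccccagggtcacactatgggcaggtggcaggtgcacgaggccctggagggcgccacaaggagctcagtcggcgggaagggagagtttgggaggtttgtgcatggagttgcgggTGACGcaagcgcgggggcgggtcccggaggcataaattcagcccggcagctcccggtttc
Dusp1 (chr17:26508473-26508722, reverse strand): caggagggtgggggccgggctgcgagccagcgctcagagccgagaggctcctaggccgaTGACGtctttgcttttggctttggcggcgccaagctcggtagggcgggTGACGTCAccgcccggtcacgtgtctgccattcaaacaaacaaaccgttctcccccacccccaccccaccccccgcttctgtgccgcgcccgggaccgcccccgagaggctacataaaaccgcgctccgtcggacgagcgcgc

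The match is a description of letters, and binding was not measured in these cells. *Dusp1* was the 1 gene of the 10 with TGACGTCA, which 1.55% of all windows held.

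Interferon-stimulated genes were higher with SB225002: 12 of 16 passed 1.5-fold, 0 were that much lower, and the median was 0.79. *Isg15*, a ubiquitin-like protein, lay at 43.1, 17.2 and 69.7 CPM (2.02, 1.58 to 2.47). *Ifitm3* lay at 441, 453 and 786 CPM (0.80, 0.70 to 0.90) and *Bst2* (tetherin) at 256, 211 and 357 CPM (0.76, 0.61 to 0.91). For *Isg15* and *Bst2* the vehicle MI library was the lowest of the 3. *Ifi27l2a* was an exception, with 2583, 1860 and 1645 CPM and a ratio of -0.18. In the Lyve1+ Folr2+ cells 8 passed and the median was 0.64. Without possible doublets, which are cells with over 20000 UMIs or with at least 2 genes of another cell type and made up most of the chosen cells, 6 of 13 passed at a median of 0.55. Of all 8268 genes compared under that limit, 13.6% were at least 1.5-fold higher.

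Transcripts of glycolysis enzymes were also higher, with 8 of 17 genes past 1.5-fold, 2 lower and a median of 0.58. *Gapdh* lay at 1245, 984 and 1697 CPM (0.79, 0.72 to 0.85), *Ldha* (lactate dehydrogenase) at 244, 196 and 352 CPM (0.85) and *Pkm* (pyruvate kinase) at 287, 261 and 434 CPM (0.73). The 2 lower genes were the hexokinases *Hk2* (48.9, 52.5 and 27.2 CPM, -0.95) and *Hk1* (-0.60). The Lyve1+ Folr2+ cells had 6 higher and 1 lower, with a median of 0.46. Higher sums of the list with SB225002 were seen in other cells too. They were 3250, 2869 and 4468 CPM in the chosen cells and 1885, 2269 and 3106 CPM in fibroblast-marker cells. Cells with B cell genes had 1456, 2937 and 4199 CPM, and the other Lyve1-negative cells 3672, 4499 and 6392 CPM. Without possible doublets 4 of 17 were higher in the chosen cells, at a median of 0.27, beside 13.6% of all genes under that limit.

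**Figure D4:**
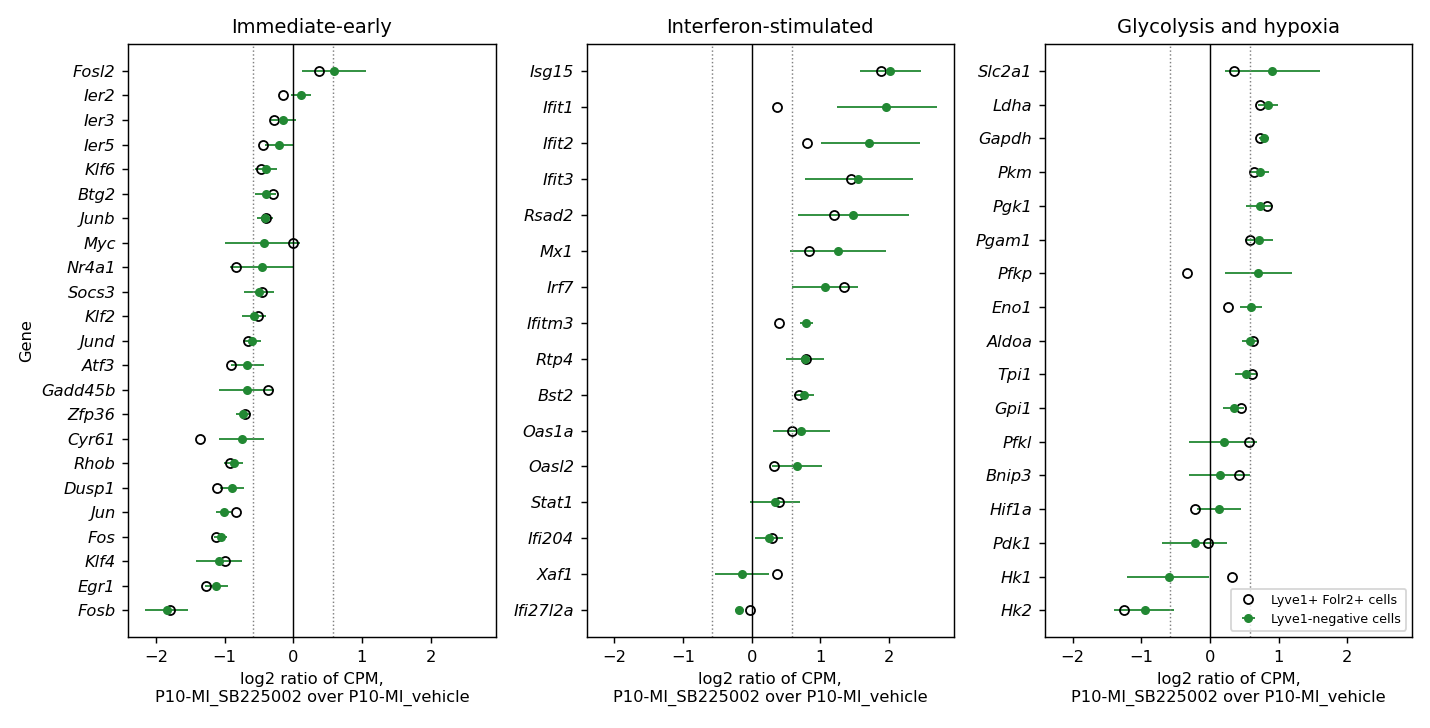
Log2 ratio of CPM in P10-MI_SB225002 over P10-MI_vehicle (horizontal axis) for the measured genes of 3 lists in the Cx3cr1+ Hpgd+ Lyve1-negative cells (filled, with exact 95% counting intervals) and the Lyve1+ Folr2+ cells (open). Dotted lines mark 1.5-fold: 12 immediate-early genes lie below the lower line, 12 interferon-stimulated and 8 glycolysis genes lie above the upper one, and the open points have medians of -0.67, 0.64 and 0.46.

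*Spp1* had the highest ratio among genes with at least 100 CPM, at 105, 471 and 2204 CPM and 2.23 (2.15 to 2.31) between the infarcted groups. It was found in 72.0% of the chosen cells with SB225002 (46.3% after thinning), but fibroblast-marker cells of that library also had it in 52.3% of cells, at 1093 CPM against 57.1 CPM in P10-MI_vehicle. *Fn1* lay at 52.1, 138 and 595 CPM (2.10, 1.95 to 2.26), in 16.1%, 21.4% and 38.8% of cells. Cells with B cell genes had it in 0%, 13.1% and 26.1% of cells at lower median depths of 6650, 3956 and 2093 UMIs, and their level, 0, 234 and 720 CPM, was above that of the chosen cells in both MI libraries. *Spp1* also stood higher in them, at 2203 and 6240 CPM after MI. *Arg1* lay at 0.789, 17.2 and 141 CPM (3.03, 2.63 to 3.45), in 0.723%, 5.76% and 20.5% of cells against 0%, 4.46% and 6.32% of fibroblast-marker cells. The level of *Arg1* in fibroblast-marker cells was 0, 114 and 20.1 CPM. In P10-MI_SB225002 the cells with B cell genes held *Arg1* at 295 CPM. The part of free RNA in these differences was not tested.

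Of 15 lipid-associated genes, 5 passed 1.5-fold and 0 were that much lower, with a median of 0.49: *Spp1*, *Gpnmb* (1.31), *Fabp5* (0.92), the tetraspanin *Cd9* (236, 189 and 389 CPM, 1.05) and *Lgals3* (galectin-3, 416, 479 and 1005 CPM, 1.07). *Trem2*, the lipid-sensing receptor, gave 0.49 (0.37 to 0.60), and *Apoe*, which carries lipid out of cells, lay at 9519, 11818 and 12399 CPM, a ratio of 0.07. In the Lyve1+ Folr2+ cells 4 passed and the median was 0.44. The remaining Lyve1-negative cells, with fewer than 3 of the 5 genes, reached higher levels of *Spp1*, at 159, 3193 and 9640 CPM.

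*Tgfbr1* gave -0.02 (-0.21 to 0.17), and 0 of the 14 genes of TGF-β signalling passed 1.5-fold in either direction. Of 6 MHC class II genes, 1 was lower (*H2-Eb1*, -0.72) and 0 higher. Of 12 genes of prostaglandin and leukotriene handling, 1 was higher (*Ptgr1*, 0.62), and 0 of 13 genes for the uptake of dying cells passed. The chemokines *Ccl2* (0.43) and *Ccl12* (0.10) did not pass, *Ccl7* did (323 CPM, 0.67), and *Cxcl2* was lower at 268, 197 and 99.2 CPM (-0.99, -1.21 to -0.77).

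Among the other genes named by rank, *Rps29* (5751, 6952 and 2504 CPM, -1.47), *Rps28*, *Rpl38* and *Atp5k* encode small ribosomal or mitochondrial proteins, and with *Cmss1*, *Cdk8*, *Gpr65* (an acid-sensing receptor, 145, 190 and 82.0 CPM) and *Lifr* (the receptor for leukaemia inhibitory factor, 160, 171 and 79.2 CPM) they filled the lower end. In the Lyve1+ Folr2+ cells the ratios were -1.40 for *Rps29* and -1.40 for *Cmss1*. *Capg* (1.03), *Rnh1* (1.01) and *S100a6* (0.95) stood at the upper end with the neutrophil genes *Retnlg* (2.21) and *Stfa2l1* (1.05). *Fabp4* gave 1.51 with all cells and -1.02 once cells with over 20000 UMIs or at least 4 genes of another cell type were left out, a limit chosen after the data were seen. In P10-MI_SB225002, 90.2% of its UMIs lay in 5% of cells.

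Genes of other cell types were present in the chosen cells and differed between libraries. Neutrophil genes summed to 4796, 6636 and 9279 CPM. A UMI of *S100a8* or *S100a9* was found in 54.9%, 60.7% and 73.0% of the chosen cells, close to the 48.2%, 58.5% and 73.0% of fibroblast-marker cells. The part of RNA from other cells in these shares was not tested. The levels were not alike: both genes together stood at 4270, 5966 and 8240 CPM in the chosen cells and at 5654, 229 and 1742 CPM in fibroblast-marker cells. At least 4 neutrophil genes were found in 5, 13 and 28 of the chosen cells. Of the 9 neutrophil genes, 2 were higher after MI and 5 higher and 1 lower with SB225002. The top 5% of cells held 94.8% to 98.2% of the *S100a8* and *S100a9* UMIs, with up to 6659 in 1 cell. Cardiomyocyte genes summed to 528, 402 and 503 CPM.

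Endothelial genes summed to 35.2, 31.9 and 132 CPM and fibroblast genes to 189, 77.3 and 51.2 CPM. Haemoglobin genes stood at 515 CPM in P10-sham_vehicle, of which 1 cell held 53.9%, and at 28.2 and 15.8 CPM in the others. T and NK cell genes reached 92.9 CPM in P10-MI_vehicle and 6.57 and 6.34 CPM elsewhere. Of the Ly6c-high monocyte genes, 6 of 7 were at least 1.5-fold higher after MI and 5 of 7 with SB225002, at summed levels of 114, 305 and 515 CPM. Without cells over 20000 UMIs or with at least 4 genes of another cell type 3 genes were still measured, of which 3 were higher after MI, and 0 higher and 1 lower with SB225002. Of all genes under that limit, 3.66% were higher after MI, and 6.90% higher and 6.93% lower with SB225002. The part of transcripts of other cell types in the lists above was not tested.

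The cells varied more for some genes than for others within a library. *Apoe* was found in every chosen cell, at a median of 85.8, 106 and 104 UMIs per 10000, and 5% of cells held 15.1% to 21.0% of its UMIs. The immediate-early list had a median of 57.9, 65.5 and 38.1 UMIs per 10000 and the glycolysis list 27.4, 22.9 and 36.3. For *Spp1* the median cell held 0, 0 and 2.26 UMIs per 10000, and the top 10% of cells began at 1.77, 4.67 and 36.9.

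**Figure D5:**
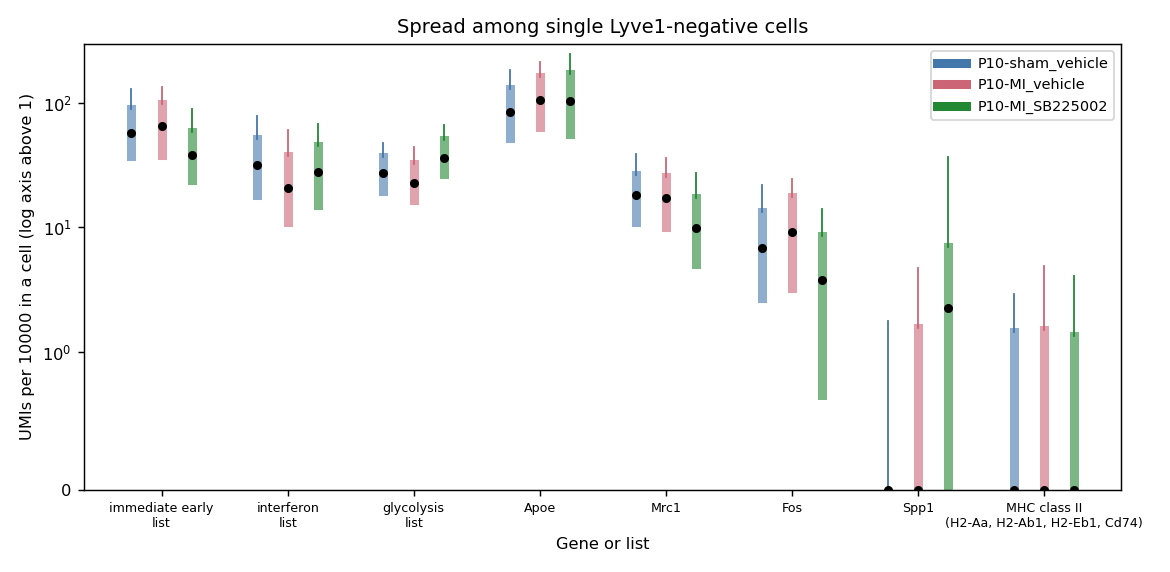
UMIs per 10000 UMIs in single Cx3cr1+ Hpgd+ Lyve1-negative cells (log axis above 1) for 8 genes or lists by library; dots are medians, thick bars the middle 50% of cells and thin lines reach the top 10%. *Apoe* and the lists have medians well above 0 in each library, whereas *Spp1* and MHC class II have medians at 0 apart from *Spp1* at 2.26 in P10-MI_SB225002.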

How the data were processed

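For each library, the authors deposited a table of UMI counts by gene and barcode, not normalized and before the limits above were applied. The lowest barcode held 502, 500 and 500 UMIs, so the lower limit of 500 UMIs removed none. The submitters' processing notes name the genome build mm10 and Seurat 4.1.0. The aligner, annotation, and strand and multi-mapping settings are not given in the sources used here. Per the methods, buffers held sodium butyrate.

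Cells were filtered and chosen as stated above. Doublets were kept, because no caller is named, and their removal was tried as an alternative. UMIs were summed over the chosen cells of each library and scaled to CPM, with no pseudocount. Genes with a mean of at least 10 CPM over the 3 libraries were compared, and 1.5-fold was the threshold. Shares carry Clopper-Pearson intervals, differences Newcombe intervals, levels exact Poisson intervals and ratios exact conditional intervals, all at 95% and for counting error only. A sum of 0 UMIs allows up to 3.

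There was no test, because each group has 1 library. Scaling by edgeR 4.0.16 (TMM) and DESeq2 1.42.0 (size factors), thinning, weighting of cells, filters and cell limits were alternatives. Scripts ran in Python 3.11.15 with NumPy 2.4.6 and SciPy 1.17.1, and were tested on simulated data. The members and the 35 gene lists were chosen with earlier results of these data known. Named genes are the 10 highest and 10 lowest ratios of each comparison among genes with at least 100 CPM, up to 4 genes of highest level per list, the genes of the choice, and other listed genes where a role is described. Clusters were not made. Some genes that the rule names are not reported here.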

Additional observations from a re-analysis of the deposited data

Results flagged for a closer look

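*Hba-a1*, a haemoglobin gene that marks red cells, differed in direction between the Cx3cr1+ Hpgd+ Lyve1-negative cells and the Lyve1+ Folr2+ cells. Its log2 ratio of P10-MI_vehicle over P10-sham_vehicle was -3.87 in the Cx3cr1+ Hpgd+ Lyve1-negative cells and 0.80 in the Lyve1+ Folr2+ cells. The ratio of P10-MI_SB225002 over P10-MI_vehicle was -0.64 and 1.03. With 1 library per group these differences were not tested, and 1 chosen cell of P10-sham_vehicle held 53.9% of the haemoglobin list's UMIs.

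Barcodes outside the limits on UMIs, genes or mitochondrial share, which no comparison used, also met the rest of the choice. They numbered 101 in P10-sham_vehicle, 74 in P10-MI_vehicle and 19 in P10-MI_SB225002.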

How the results depend on the processing

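No paired analysis was possible because each group has 1 library, and for the same reason no replicate could be left out. TMM and DESeq2 size factors kept each count of genes within 1.5 times and moved the median of all genes by less than 0.02. Leaving out cells with over 20000 UMIs or at least 4 genes of another cell type was chosen after the data were seen. The causes of the moves below were not tested.

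The share of chosen cells in P10-MI_vehicle minus P10-sham_vehicle was -0.26 points after thinning and -1.09 with at least 2 of the 5 genes. As a share of all C1q+ cells it was -0.28 points. P10-MI_SB225002 minus P10-MI_vehicle gave -4.73 after thinning, -8.44 with at least 2 genes, -7.08 with at least 4, and -7.28 as a share of all cells.

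Counts are given as higher and lower after MI, then higher and lower with SB225002. They were 731, 683, 1085 and 936 after thinning, 29, 11, 121 and 106 with at least 50 CPM, and 3975, 3505, 3915 and 4579 with no filter. Without cells over 20000 UMIs or holding at least 2 genes of another type they were 708, 851, 1127 and 1152. Under 5% mitochondrial UMIs gave 367 and 328 after MI, and the limit of 4 genes gave 257 lower after MI.

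After MI and without cells of at least 2 or at least 4 such genes, *Col1a1* gave 1.43 and 2.84, *Col1a2* 2.65 and 4.08, and *Col3a1* 0.36 and 0.78. *Wfdc21* gave -0.57 with the limit of 2, and *Eno3* 0.43 after thinning. With SB225002, the limit of 2 gave 0.11 for *Dcn*, 0.63 for *Hbb-bs*, -1.21 for *Hp*, -0.89 for *Lcn2* and -0.10 for *Plac8*. The limit of 4 gave -0.96 for *Cdh5*, 0.13 for *Col1a2*, 0.070 for *Col3a1*, 9.5e-05 for *Dcn*, -1.02 for *Fabp4*, -2.40 for *Kdr* and -1.19 for *Plac8*. Thinning gave 0.11 for *Hbb-bs*.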
